A study of Mus musculus with 9 samples.

Results

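The GLP-1 receptor gene *Glp1r*, the peptidase gene *Dpp4* that ends the action of its hormone, and 8 genes of the cAMP relay that such a receptor uses (*Adcy4*, *Pde4b*, *Pde4d*, *Prkar1a*, *Prkaca*, *Creb1*, *Crem* and *Sik1*) were profiled across the cells of the mouse brain. The 10 genes were named by symbol, a rule that uses no measured value, though earlier results of these data were known when they were chosen. Of the 10, 9 had counts among the 19746 genes listed. Cells were obtained from brains, without the cerebellum, of male C57BL/6J mice, labelled C57BL/6, after enzymatic dissociation and removal of myelin debris. The 3 groups were young adult mice aged 2–3 months, aged mice of 18–20 months, and mice of the same age given exenatide, a GLP-1 receptor agonist, at 5 nmol/kg/day by intraperitoneal injection from 17–18 months of age for 4–5 weeks. The labels give no vehicle injection for the libraries of the other groups. Each group held 3 libraries, numbered 1, 2 and 4, and each library is labelled with 3 mice.

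GLP-1 is a gut and brainstem peptide, and exenatide is a peptidase-resistant drug that binds the same receptor. The receptor couples to the stimulatory G protein, which activates adenylyl cyclases, so that ATP is turned into cAMP. In turn cAMP frees the catalytic subunits of protein kinase A (PKA) from the regulatory ones, PKA phosphorylates factors such as CREB that bind promoters at the cAMP response element, and phosphodiesterases of the PDE4 family hydrolyse cAMP. In brain vessels, cAMP is known for tightening endothelial junctions and for relaxing smooth muscle.

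After the authors' filters the libraries held 938 to 15019 cells, 72543 in all, with 2550943 to 21920194 unique molecular identifiers (UMIs, each standing for a captured RNA molecule) and medians of 922 to 2618.5 UMIs per cell. Aged library 1 was the smallest, with 324 endothelial cells (ECs) against 1579 to 3564 in the others. Any pair of libraries shared at most 226 cell barcodes. The deposited annotation names 16 cell types, 6 EC subtypes (aEC1 and aEC2, arterial; capEC, capillary; vcapEC, capillary-venous; vEC, venous; avEC, arterial and venous) and 3 subtypes of smooth muscle cells (SMCs; aSMC, aaSMC and vSMC). Of 49 marker genes 48 were highest in the type they mark; the exception was *Aqp4*, which was higher in tanycytes than in astrocytes (AC).

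The 10 genes lie on 9 chromosomes of the mm10 assembly (GRCm38, GENCODE M21). *Glp1r* is at chr17:30901817-30940791 on the plus strand, *Dpp4* at chr2:62330073-62412231 (minus) and *Adcy4* at chr14:55769057-55784095 (minus). *Pde4b* is at chr4:102087543-102607259 (plus), *Pde4d* at chr13:108449948-109953461 (plus), *Prkar1a* at chr11:109649405-109669656 (plus) and *Prkaca* at chr8:83972993-83996443 (plus). *Creb1* is at chr1:64532645-64604548 (plus), *Crem* at chr18:3266048-3337748 (minus) and *Sik1* at chr17:31844250-31855804 (minus). The reads came from the 3′ ends of transcripts, so that the values below are sums over the transcripts of a gene and do not separate start sites.

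Promoters of 8 of the members are given by RefSeq on GRCm38.p6, as 17 windows of 300 bases (250 before and 50 after a start site; a gene can have several). The palindromic cAMP response element, TGACGTCA, was found in 2 windows, both of *Prkar1a*, against 588 of 32851 windows genome-wide (1.79%). The 2 windows overlap and hold the same site, so that 1 site is counted in both. The shorter core of the element, TGACG on either strand and counted also within the palindrome, was found in 5 windows of 3 members (*Prkar1a*, *Prkaca* and *Pde4b*), against 20.8% of all windows. These 5 windows include the overlapping pair. These matches are letters in a window and are no evidence of binding. Printed 5′ to 3′ on the plus strand are 1 window of *Prkar1a* (chr11:109650699-109650998), which carries the palindrome, and 1 each of the phosphodiesterase genes *Pde4b* (chr4:102421305-102421604) and *Pde4d* (chr13:108653927-108654226), the members with the widest differences between young adult and aged ECs. Capitals mark the element or its core, and the *Pde4d* window has neither.

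Prkar1a: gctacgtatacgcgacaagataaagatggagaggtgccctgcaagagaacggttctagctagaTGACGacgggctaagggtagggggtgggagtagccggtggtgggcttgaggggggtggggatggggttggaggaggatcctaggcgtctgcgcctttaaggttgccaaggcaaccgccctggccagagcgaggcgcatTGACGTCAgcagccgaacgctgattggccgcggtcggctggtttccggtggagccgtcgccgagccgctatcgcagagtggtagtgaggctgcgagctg
Pde4b: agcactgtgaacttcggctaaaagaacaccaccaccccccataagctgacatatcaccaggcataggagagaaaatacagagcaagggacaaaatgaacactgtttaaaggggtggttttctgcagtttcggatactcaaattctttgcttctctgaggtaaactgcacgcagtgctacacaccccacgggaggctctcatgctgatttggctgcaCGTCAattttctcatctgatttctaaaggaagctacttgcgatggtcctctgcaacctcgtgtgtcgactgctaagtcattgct
Pde4d: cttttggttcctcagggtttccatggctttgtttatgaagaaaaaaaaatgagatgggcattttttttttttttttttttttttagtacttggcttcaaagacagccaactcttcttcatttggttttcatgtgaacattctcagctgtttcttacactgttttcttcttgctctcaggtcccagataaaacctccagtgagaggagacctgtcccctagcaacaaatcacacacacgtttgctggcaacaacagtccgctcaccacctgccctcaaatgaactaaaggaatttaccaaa

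*Glp1r*, the receptor of exenatide, was not detected. It was not among the genes listed, so that no count is given for any of the 16 cell types, including 20403 ECs, or any EC subtype. The authors had removed genes found in fewer than 3 cells. Of the 19746 genes kept, 717 had UMIs in fewer than 3 of the cells analysed here. The removal was thus made on a set that also held other cells. The study's methods give fewer cells for its primary matrix than are analysed here. They do not say whether that matrix held the treated libraries. Only if the removal covered every cell analysed here is 2 cells the limit for *Glp1r*, or 0.00276% of all cells and 0.00980% of the ECs. In a small type the limit is wider, as 2 cells would be 0.503% of the 398 mature neurons. No comparison between groups could be made. The related hormone and receptor genes *Gcg*, *Gip* and *Glp2r* were likewise not detected. *Gipr*, the receptor of the sister hormone GIP, had 46 UMIs in 44 cells, 28 of them in pericytes (PCs), and *Gcgr*, the glucagon receptor, had 14 UMIs in 13 cells, 8 of them in SMCs.

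Apart from *Dpp4*, which was highest in the cells annotated as oligodendrocytes, the other members fell into 3 patterns over cell types. *Adcy4*, *Crem* and *Sik1* were highest in ECs, and *Pde4b* and *Pde4d* in mural cells (SMCs and PCs). The PKA subunits and *Creb1* were spread over many types. Levels are in CPM: the UMIs of a gene in the cells of a type in a library, per 1000000 UMIs of all genes in those cells, averaged over the libraries with at least 10 cells of the type. They describe each gene across types and carry no test, since the authors named the types from the same expression values. Fewer transcripts per cell and fewer expressing cells cannot be told apart in these sums. ECs were 20403 of the 72543 cells and held 34934928 UMIs of all genes, more than any other type. The share of a gene's UMIs found in ECs is thus not by itself an enrichment.

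**Figure D1:**
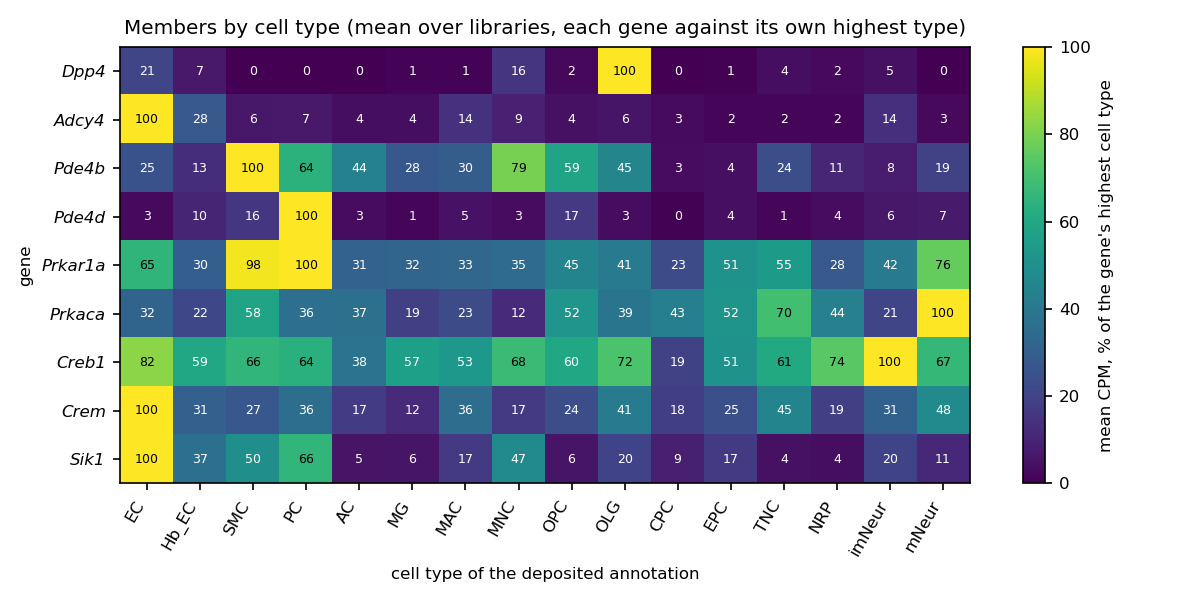
Mean CPM of each member in 16 cell types, as a percent of that gene's own highest type (0 to 100, printed in each square). *Adcy4*, *Crem* and *Sik1* peak in ECs, *Pde4d* in PCs with every other type at 17% or less, and *Prkar1a* and *Creb1* are spread widely. CPC, choroid plexus cells; EPC, ependymal cells; Hb_EC, haemoglobin-expressing vascular cells; imNeur and mNeur, immature and mature neurons; MAC, macrophages; MG, microglia; MNC, monocytes; NRP, neuronal precursors; OLG and OPC, oligodendrocytes and their precursors; TNC, tanycytes.

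*Dpp4* encodes the membrane peptidase that clips GLP-1 and is the target of the gliptin drugs. It was the sparsest of the members, with 470 UMIs in 454 cells, and 82.6% of these UMIs were in ECs. In ECs its level was 11.4 ± 4.17 CPM (SD, n = 9 libraries), and 1.88% of ECs had a UMI (exact binomial 95% interval 1.70 to 2.08%; this and the intervals below cover counting error only). The share in microglia, which had a median of 1296 UMIs per cell against 1395 in ECs, was 0.103%, and 0 of 1010 PCs had one (a count of 0 is taken to allow up to 3 counts, here 0.297%). The highest level was in the cells annotated as oligodendrocytes, at 54.0 ± 39.7 CPM over the 7 libraries with at least 10 of them. In those cells *Dpp4* was 18.6 and 74.4 CPM in young adult libraries 2 and 4, 31.9 and 113 CPM in aged libraries 2 and 4, and 94.4, 10.6 and 35.8 CPM in treated libraries 1, 2 and 4. It lay above the EC level of the same library in 7 of 7.

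The oligodendrocyte value for *Dpp4* rested on 21 cells of 346. Of these 21, 18 had no UMI of the myelin genes *Mbp* or *Mog*, as was the case for 277 of the 346 cells; brains had been cleared of myelin before capture. A *Dpp4* UMI was thus found in 6.5% of the cells without either and in 4.35% of the 69 cells with them (3 cells). The level went the other way, at 42.7 CPM in the cells without (23 UMIs) and 58.4 CPM in those with (9 UMIs). *Cldn11* was counted here as a further oligodendrocyte marker. It had UMIs in 62.1% of the 346 cells and in 57.4% of the 277 without *Mbp* or *Mog*. Whether those 277 cells were oligodendrocytes was not tested. *Mbp* was found in 1.14%, 0% and 0% of the oligodendrocytes of young adult, aged and treated library 2. In library 4 the shares were 31.6%, 43.5% and 49.0%. The fibroblast markers *Dcn*, *Col1a1*, *Igfbp2* and *Lum* had UMIs in 19.4%, 19.4%, 16.2% and 1.73% of the 346 cells. Their summed level in the annotated oligodendrocytes was 570 to 838 CPM in young adult, 398 to 531 in aged and 170 to 571 in treated libraries. In ECs the summed level was 1.62 to 15.02, 3.46 to 8.92 and 4.80 to 14.6 CPM in the same order. The part of other cells in the *Dpp4* level was not tested.

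*Adcy4*, an adenylyl cyclase stimulated by the G protein of such receptors, was the member most restricted to ECs. Of its 2171 UMIs, 90.5% were in ECs, where the level was 58.2 ± 14.2 CPM (n = 9). The next type, Hb_EC, had 16.4 ± 17.0 CPM and lay below ECs in 6 of 6 libraries. The share of ECs with a UMI was 9.0% (8.61 to 9.40%) and that of microglia 0.323% (0.248 to 0.413%), and after thinning each cell to 500 UMIs (no cell had fewer than 578) the shares were 2.74% and 0.114%. Summed over all libraries, *Adcy4* outside ECs and Hb_EC was 2.43 to 21% of its EC level, while the EC junction gene *Cldn5* was 1.96 to 16% of its own. The ranges of the 2 genes were thus of a like order, and whether free or adhering EC RNA gave the *Adcy4* counts of the other types was not tested. Among EC subtypes *Adcy4* was highest in avEC, at 102 ± 36.7 CPM, above every other subtype in 9 of 9 libraries, and aEC2 came next at 60.7 CPM.

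The phosphodiesterase genes peaked in mural cells, each in a different class. *Pde4d* was at 321 ± 60.4 CPM in PCs (n = 9), and its libraries ranged from 236 to 389 CPM. The next type, OPC, had 53.9 ± 20.3 CPM, and its range of 20.7 to 86.2 CPM did not overlap that of PCs. A *Pde4d* UMI was found in 25.1% of PCs (22.4 to 27.8%; median 851.5 UMIs per cell) and in 0.539% of microglia (median 1296). Thinned to 500 UMIs, the shares were 14.5% and 0.191%. In ECs *Pde4d* was 2.82% of the PC level, against 0.617% for the summed PC markers *Kcnj8*, *Abcc9* and *Vtn*. The *Pde4d* share was the larger in every other type too, as in microglia (1.12% against 0.229%) and astrocytes (3.16% against 0.238%). The part of PC RNA in these shares was not tested. Within SMCs *Pde4d* was highest in the subtype annotated vSMC (103 ± 44.9 CPM, 7 libraries), then in aaSMC (50.3 CPM, lower in 6 of 7) and lowest in aSMC (29.4 CPM).

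*Pde4b* instead led in the aSMC subtype, in which *Pde4d* was lowest. It was 176 ± 53.4 CPM in aSMC, 102 ± 38.6 in aaSMC (lower in 8 of 9 libraries) and 97.2 in vSMC. Over all SMCs *Pde4b* was 140 ± 40.2 CPM, with 158, 150 and 111 CPM in young adult, 135, 197 and 77.8 in aged and 154, 183 and 90.0 in treated libraries 1, 2 and 4. Monocytes came next at 111 ± 44.3 CPM and lay below SMCs in 6 of 8 libraries, then PCs at 89.7 and OPC at 81.6 CPM. ECs had 23.4% of the 5122 *Pde4b* UMIs, and within ECs the gene was highest in capEC, at 59.8 ± 19.9 CPM, above vcapEC (35.2 ± 10.0) and all other subtypes in 9 of 9 libraries. The lowest subtype was vEC at 20.6 CPM.

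*Prkar1a*, which encodes the regulatory subunit that holds PKA inactive, had 20994 UMIs in 16649 cells and was found in all 16 types. PCs (396 ± 112 CPM) and SMCs (389 ± 140) did not differ in order beyond their spread, with PCs above in 5 of 9 libraries, and ECs were at 259 ± 67.4 CPM. Among EC subtypes *Prkar1a* was nearly level, from 230 CPM in avEC to 274 in aEC2. *Prkaca*, which encodes a catalytic subunit of PKA, had 2770 UMIs, 29.7% of them in ECs. Its highest mean was in mature neurons, at 73.8 ± 71.6 CPM, above tanycytes (51.4) in 3 of 8 libraries only, so that the leading types could not be ordered. In EC subtypes *Prkaca* ranged from 21.1 to 29.2 CPM.

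Of the nuclear members, *Creb1*, the founding factor of the family, was the most even, and *Crem*, whose inducible short form ICER represses the same promoters, was the more endothelial. *Creb1* was at 63.8 ± 38.0 CPM in immature neurons and 52.6 ± 17.1 in ECs, and the former lay above the latter in 4 of 8 libraries. ECs held 41.8% of its 4592 UMIs. *Crem* was at 93.6 ± 40.1 CPM in ECs and 44.8 ± 22.6 in mature neurons, lower there in 8 of 8 libraries, and ECs held 68.3% of its 4555 UMIs. A *Crem* UMI was found in 13.4% of ECs and 1.71% of microglia. Within ECs the arterial subtypes had the highest means for *Crem*, at 115 ± 72.5 (aEC2) and 114 ± 28.9 CPM (aEC1). However, aEC2 lay above aEC1 in 3 of 9 libraries only. The next subtype, capEC (94.2 CPM), lay below aEC1 in 7 of 9 and below aEC2 in 6 of 9. The lowest was vcapEC at 78.2 CPM.

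*Sik1*, a kinase gene that CREB induces and whose product holds the CREB coactivators outside the nucleus, followed ECs too. ECs held 80.6% of its 3583 UMIs, at 84.5 ± 53.5 CPM, and 12.2% of ECs had one against 0.595% of astrocytes. PCs came next at 55.5 ± 60.4 CPM, below ECs in 7 of 9 libraries. Within ECs the libraries numbered 2 stood above the others, as described further on. By EC subtype *Sik1* was highest in capEC (98.1 ± 57.2 CPM, above each other subtype in 8 of 9 libraries) and lowest in avEC (57.6).

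The effect of age was asked by comparing aged with young adult libraries, and that of exenatide by comparing treated with untreated aged ones. The comparisons share the aged libraries. Of the members, *Pde4b* was higher and *Pde4d* lower in aged than in young adult ECs with no overlap between the groups, and neither change passed the test over all genes. The other 7 members overlapped between the groups in ECs in both comparisons. Sums over the cells of a type in a library were tested with the quasi-likelihood test of edgeR, with p-values adjusted over all genes of that type (false discovery rate, FDR). A gene was called at an FDR below 0.05 with an absolute *lnFC*, the natural log of the fold change after TMM scaling, above 0.1.

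**Figure D2:**
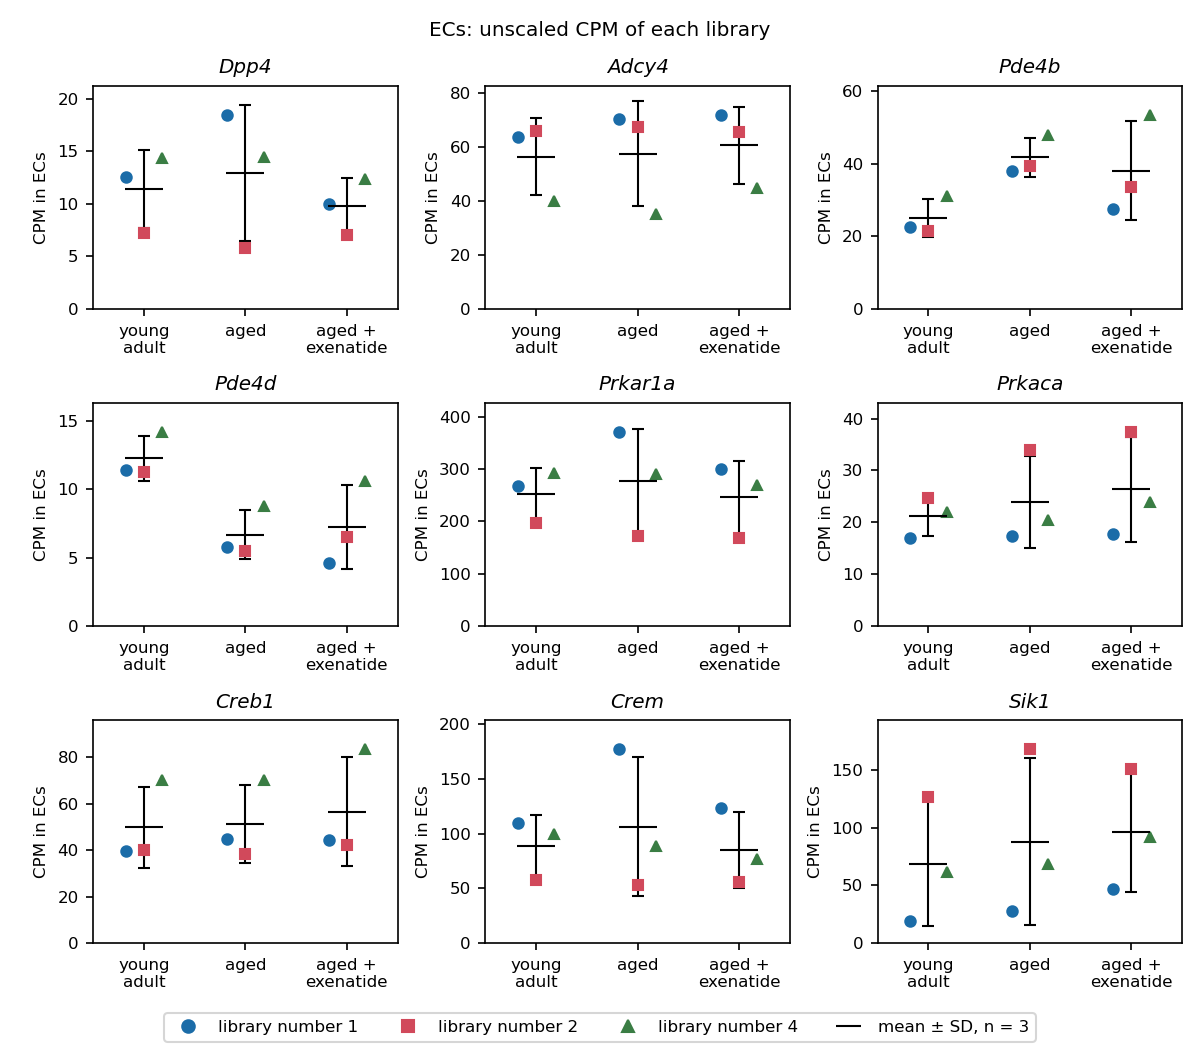
CPM (not scaled by TMM) of the 9 detected members in the ECs of each library, by group, with the mean ± SD of 3 libraries; symbols give the library number. For *Pde4b* the aged libraries (38.0 to 48.0 CPM) lie above the young adult ones (21.5 to 31.1), and for *Pde4d* below. For *Sik1* and *Crem* the order of the library numbers recurs in each group, and for *Creb1* library 4 is the highest in each.

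*Pde4b* in ECs was 22.5, 21.5 and 31.1 CPM in young adult, 38.0, 39.5 and 48.0 in aged and 27.5, 33.5 and 53.4 in treated libraries 1, 2 and 4. Every aged library lay above every young adult one, and the treated ones spread over both. Its *lnFC* was 0.52 ± 0.19 (SE) with age (edgeR FDR = 1) and −0.10 ± 0.19 with exenatide. With the library number as a block the age value was 0.51 ± 0.12 (FDR = 0.0567), which did not pass the limit.

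*Pde4d* in ECs went the other way, from 11.4, 11.3 and 14.2 CPM in young adult to 5.76, 5.49 and 8.76 in aged and 4.59, 6.47 and 10.6 in treated libraries. The aged libraries all lay below the young adult ones. So did the treated ones, but treated and young adult libraries were not compared over all genes. ECs held 20.2% of the 1623 *Pde4d* UMIs, and the EC sum of aged library 1 held 867779 UMIs of all genes. The level in that library thus rests on few *Pde4d* UMIs. The *lnFC* was −0.58 ± 0.24 with age (edgeR FDR = 1; −0.63 ± 0.19 and FDR = 0.152 with the block) and 0.06 ± 0.25 with exenatide. The summed PC markers in ECs, measured because PCs were the highest type for *Pde4d*, were 53 to 108 CPM in young adult, 53 to 124 in aged and 61 to 128 in treated libraries, and the groups overlapped. The part of PC RNA in the *Pde4d* values was not tested. Without aged library 1 the age values were 0.55 ± 0.22 for *Pde4b* and −0.55 ± 0.27 for *Pde4d*.

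Among all 11052 genes tested in ECs, the groups did not overlap in the aged and young adult comparison for 796 (7.20%), 413 higher with age (3.74%) and 383 lower (3.47%). With exenatide it was 357 genes (3.23%), 208 higher (1.88%) and 149 lower (1.35%), and no member. The 2 members among 9 are read against that share. No gene was called in ECs without the block in either comparison (0% and 0%); 332 with age and 56 with exenatide had an unadjusted p below 0.05, and DESeq2 called 10 and 0. With the block 90 genes (0.814%) were called with age and 0 with exenatide, none of them a member.

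**Figure D3:**
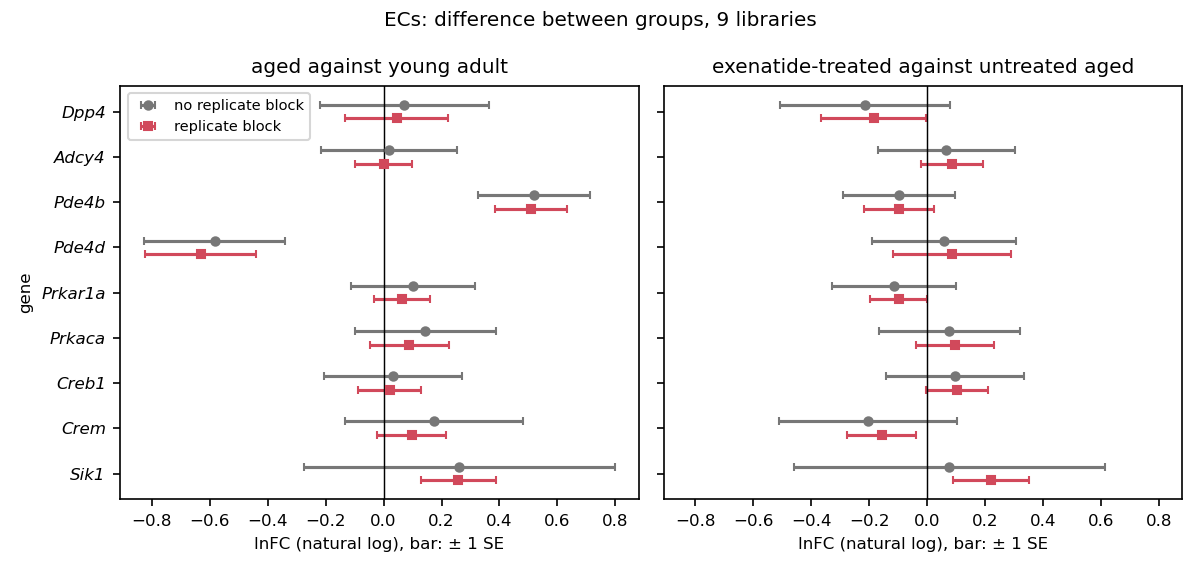
*lnFC* ± 1 SE of the 9 detected members in ECs with age (left) and with exenatide (right), fitted by edgeR to 9 libraries, without (grey) and with (red) the library number as a block. *Pde4b* (0.52) and *Pde4d* (−0.58) lie apart from 0 with age; the exenatide values of all members lie between −0.21 and 0.22.

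The peptidase, cyclase and PKA members did not move in ECs beyond the spread between the libraries of a group, which includes differences between library numbers. *Dpp4* was 12.6, 7.24 and 14.3 CPM in young adult, 18.4, 5.83 and 14.5 in aged and 10.0, 7.03 and 12.3 in treated libraries (*lnFC* 0.07 ± 0.29 with age and −0.21 ± 0.29 with exenatide). *Adcy4* was 63.7, 65.7 and 39.9, then 70.3, 67.3 and 35.0, then 71.8, 65.5 and 44.6 CPM (0.02 ± 0.24 and 0.07 ± 0.24). For both genes the spread within a group was wider than the difference between the group means. *Prkar1a* was 267, 196 and 292 CPM in young adult, 371, 172 and 290 in aged and 301, 168 and 270 in treated libraries (0.10 ± 0.21 and −0.11 ± 0.21). *Prkaca* was 17.0, 24.7 and 22.0, then 17.3, 34.0 and 20.5, then 17.7, 37.4 and 23.9 CPM (0.14 ± 0.24 and 0.08 ± 0.24). In *Prkaca* library 2 was the highest of each group.

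For the nuclear members too the spread within a group was wider than the difference between the group means. That spread again includes the differences between library numbers, which recur in each group. *Creb1* was 39.6, 40.0 and 70.1 CPM in young adult, 44.9, 38.4 and 70.3 in aged and 44.2, 42.2 and 83.5 in treated libraries (*lnFC* 0.03 ± 0.24 with age and 0.10 ± 0.24 with exenatide). *Crem* was 110, 57.4 and 99.8, then 177, 53.5 and 88.8, then 123, 55.7 and 76.5 CPM (0.17 ± 0.31 and −0.20 ± 0.31). *Sik1* was 19.1, 126 and 61.4, then 27.7, 168 and 68.2, then 47.1, 151 and 91.5 CPM (0.26 ± 0.54 and 0.08 ± 0.54). In each group library 4 was the highest for *Creb1*, library 1 for *Crem* and library 2 for *Sik1*. With the block the *Sik1* values were 0.26 ± 0.13 (FDR = 0.449) with age and 0.22 ± 0.13 (FDR = 1) with exenatide. In capEC *Sik1* was 24.8, 126 and 74.1 CPM in young adult, 58.2, 204 and 76.5 in aged and 52.2, 162 and 105 in treated libraries. In aEC1 it was 14.0, 123 and 51.0, then 29.3, 136 and 54.8, then 46.7, 168 and 96.4 CPM (with the block 0.46 ± 0.19 with exenatide, edgeR FDR = 0.797).

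The higher *Pde4b* of aged ECs was seen without overlap, after TMM scaling, in 3 of the 4 EC subtypes in which the gene could be tested. In the other, aEC1, the aged and young adult libraries overlapped. The subtypes are parts of the EC sums of the same libraries, so that they do not repeat the EC result independently. In capEC it was 35.5, 35.8 and 46.0 CPM in young adult, 74.8, 77.1 and 76.5 in aged and 49.3, 54.1 and 89.3 in treated libraries. The aged libraries lay above all young adult ones, as for 3.52% of the genes tested in capEC, while treated libraries 1 and 2 lay between and library 4 above (*lnFC* with age 0.65 ± 0.22; with the block 0.61 ± 0.18, edgeR FDR = 0.195). In aEC2 *Pde4b* was 17.6, 16.1 and 17.8 CPM in young adult, 34.2, 33.5 and 35.3 in aged and 9.57, 26.6 and 29.8 in treated libraries, the aged ones above the young adult ones (3.82% of genes there) and the treated ones below the aged ones (1.74%; *lnFC* 0.69 ± 0.31 with age; FDR = 0.485 with the block). In vcapEC it was 26.0, 18.6 and 34.3, then 34.1, 36.5 and 50.4, then 35.7, 31.8 and 49.1 CPM, and young adult library 4 overlapped aged library 1 before TMM scaling but not after it (3.78% of genes higher without overlap; 0.43 ± 0.18 and FDR = 0.451 with the block). The capEC and aEC2 sums of aged library 1 held 120355 and 87688 UMIs of all genes, so that its levels there rest on few *Pde4b* UMIs. The difference between subtypes was not tested. In SMCs, where *Pde4b* was highest, the values with age and exenatide were −0.01 ± 0.26 and 0.04 ± 0.26.

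*Pde4d* could be tested in 1 EC subtype, vcapEC. There it was 12.6, 15 and 15.7 CPM in young adult, 6.20, 8.70 and 6.72 in aged and 2.23, 4.33 and 9.13 in treated libraries. The aged vcapEC sums held 322795, 574899 and 595093 UMIs of all genes in libraries 1, 2 and 4. These levels thus rest on few *Pde4d* UMIs. All aged libraries lay below the young adult ones, as for 3.66% of genes there (with the block −0.71 ± 0.33, edgeR FDR = 0.523). The treated ones lay below the young adult ones as well, a comparison that was not made over all genes. In PCs, its highest type, young adult libraries 1, 2 and 4 had *Pde4d* at 389, 315 and 365 CPM. The aged ones had 374, 256 and 387 CPM, and the treated ones 260, 236 and 309. The aged libraries overlapped both other groups (−0.09 ± 0.18 with age and −0.18 ± 0.19 with exenatide). Every treated library lay below every young adult one in PCs too, and this pair of groups was again not compared over all genes.

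**Figure D4:**
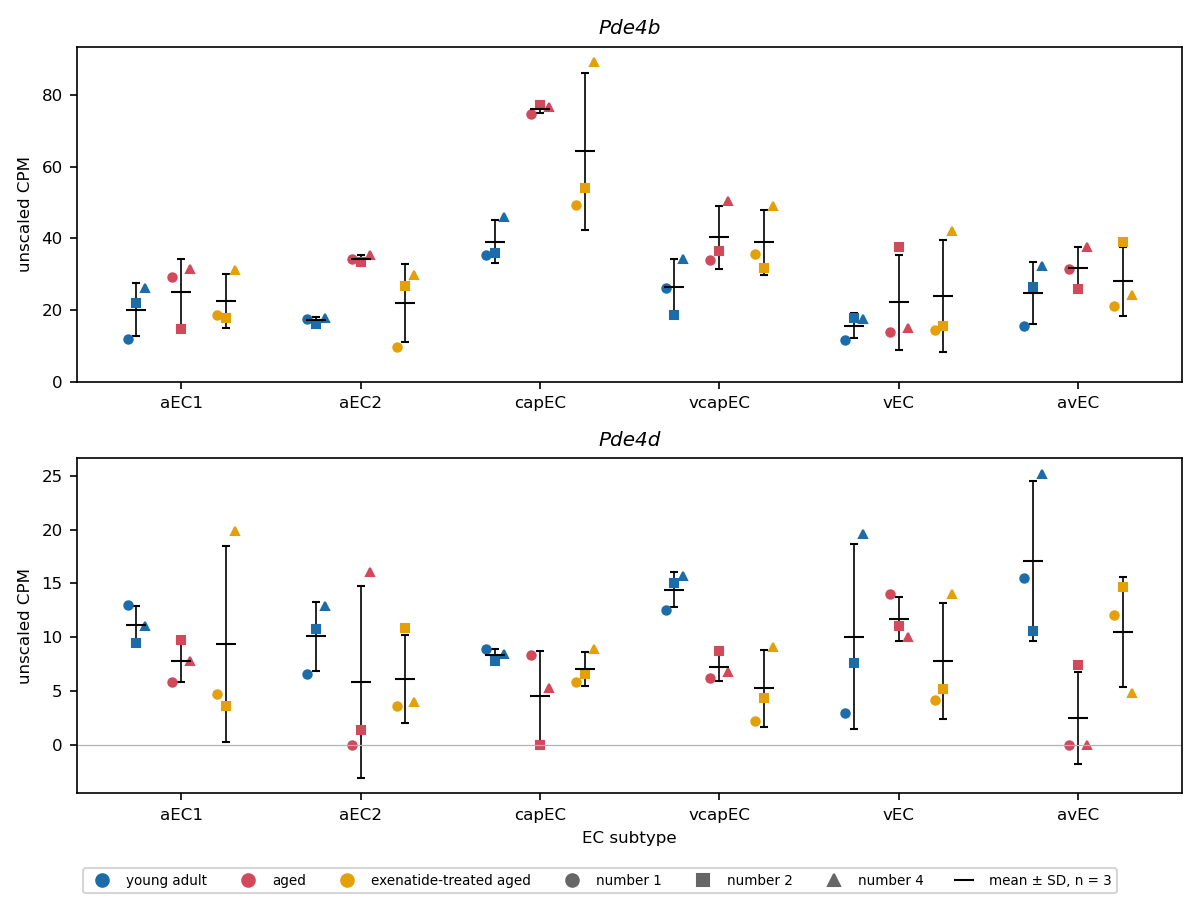
CPM (not scaled by TMM) of *Pde4b* (top) and *Pde4d* (bottom) in the 6 EC subtypes, by group (colour) and library number (symbol), with the mean ± SD of 3 libraries. The aged capEC values of *Pde4b* (74.8 to 77.1 CPM) lie above the young adult ones (35.5 to 46.0); the *Pde4d* values are low in every subtype, and several libraries are at 0.

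Over 21 cell types and EC subtypes, 93 pairs of a member and a type could be tested. None was called with age or with exenatide, against 0.00545% and 0% of the 110108 pairs of any gene and a type. The edgeR test gave 6 and 0 member pairs with an unadjusted p below 0.05 (2.44% and 0.959% of all pairs), and DESeq2 called 0 and gave 3 and 0. With the block again no member pair was called, against 0.39% and 0.00182% of all pairs, and 9 and 1 had an unadjusted p below 0.05, against 8.51% and 4.56%. The member pairs whose groups did not overlap were 9 of 93 with age (4 higher, 5 lower) and 3 of 93 with exenatide (2 higher, 1 lower), against 8.76% and 5.86% of all pairs, so that the members' counts were near the background.

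Outside ECs, the differences with an unadjusted p below 0.05 were in *Crem* and *Creb1*. *Crem* in OPC was 30.7, 27.7 and 25 CPM in young adult, 20.7, 11.6 and 12.3 in aged and 32.4, 24.1 and 16.5 in treated libraries, the aged ones all below the young adult ones (4.33% of genes there; *lnFC* −0.78 ± 0.35). *Creb1* in ependymal cells was 54.4, 30.7 and 53.2 CPM in young adult, 0 and 17.2 in the aged libraries 2 and 4, which alone held 10 cells or more, and 56.8, 17.3 and 29.4 in treated libraries, so that the aged ones lay below the young adult ones (9.33% of genes there; −1.25 ± 0.60). The OPC sum of aged library 1 held 16 cells and 48370 UMIs of all genes. The ependymal sums of aged libraries 2 and 4 held 59601 and 232142 UMIs. These aged levels thus rest on few UMIs of *Crem* and *Creb1*. In microglia, 7 members could be tested and their values lay between −0.10 and 0.19 with age and between −0.35 and 0.22 with exenatide. Hb_EC had too few libraries to be tested.

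Levels of most members in ECs differed between library numbers. The libraries of a number share 1 batch letter in the deposited table of cells, which does not say what the batch was. The study's methods speak of sequencing batches. Each number holds 1 library of each group. *Sik1* in ECs was 31.3 ± 14.4 CPM in the libraries numbered 1, 149 ± 21 in those numbered 2 and 73.7 ± 15.8 in those numbered 4 (SD, n = 3), and the 3 numbers did not overlap. *Crem* was highest in number 1 (137 ± 35.8, 55.5 ± 1.93 and 88.4 ± 11.7 CPM) and *Creb1* in number 4 (42.9, 40.2 and 74.7 CPM), so that the nuclear members did not follow a common order. *Adcy4* was lowest in number 4 (68.6, 66.2 and 39.8 CPM), and *Prkar1a* (313, 179 and 284) and *Dpp4* (13.7, 6.70 and 13.7) were lowest in number 2, in which *Prkaca* was highest (17.4, 32.0 and 22.1). By the ratio of the highest to the lowest number the phosphodiesterase genes differed least, at 29.4, 31.5 and 44.2 CPM for *Pde4b* and 7.24, 7.74 and 11.2 for *Pde4d*.

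Tested in the fit with the block, the library number passed an FDR of 0.05 for 8 of the 9 members in ECs, against 49.5% of the 11052 genes. The edgeR FDR was 3.72e-07 for *Sik1*, 5.17e-05 for *Crem*, 0.000153 for *Creb1*, 0.000263 for *Adcy4* and 0.000478 for *Prkar1a*; *Pde4d* was the exception, at 0.0778. *Sik1* showed the same order in microglia, at levels of 1.30, 5.25 and 8.29 CPM for numbers 1, 4 and 2, while in SMCs number 1 (36.5 CPM) lay above number 4 (22.7) and below number 2 (66.8). *Prkar1a* in SMCs was 422, 217 and 527 CPM for numbers 1, 2 and 4, lowest in number 2 as in ECs. The members that passed numbered 4 of 7 in SMCs (22.6% of all genes there), 3 of 7 in microglia (36.2%) and 3 of 7 in astrocytes (39.2%).

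**Figure D5:**
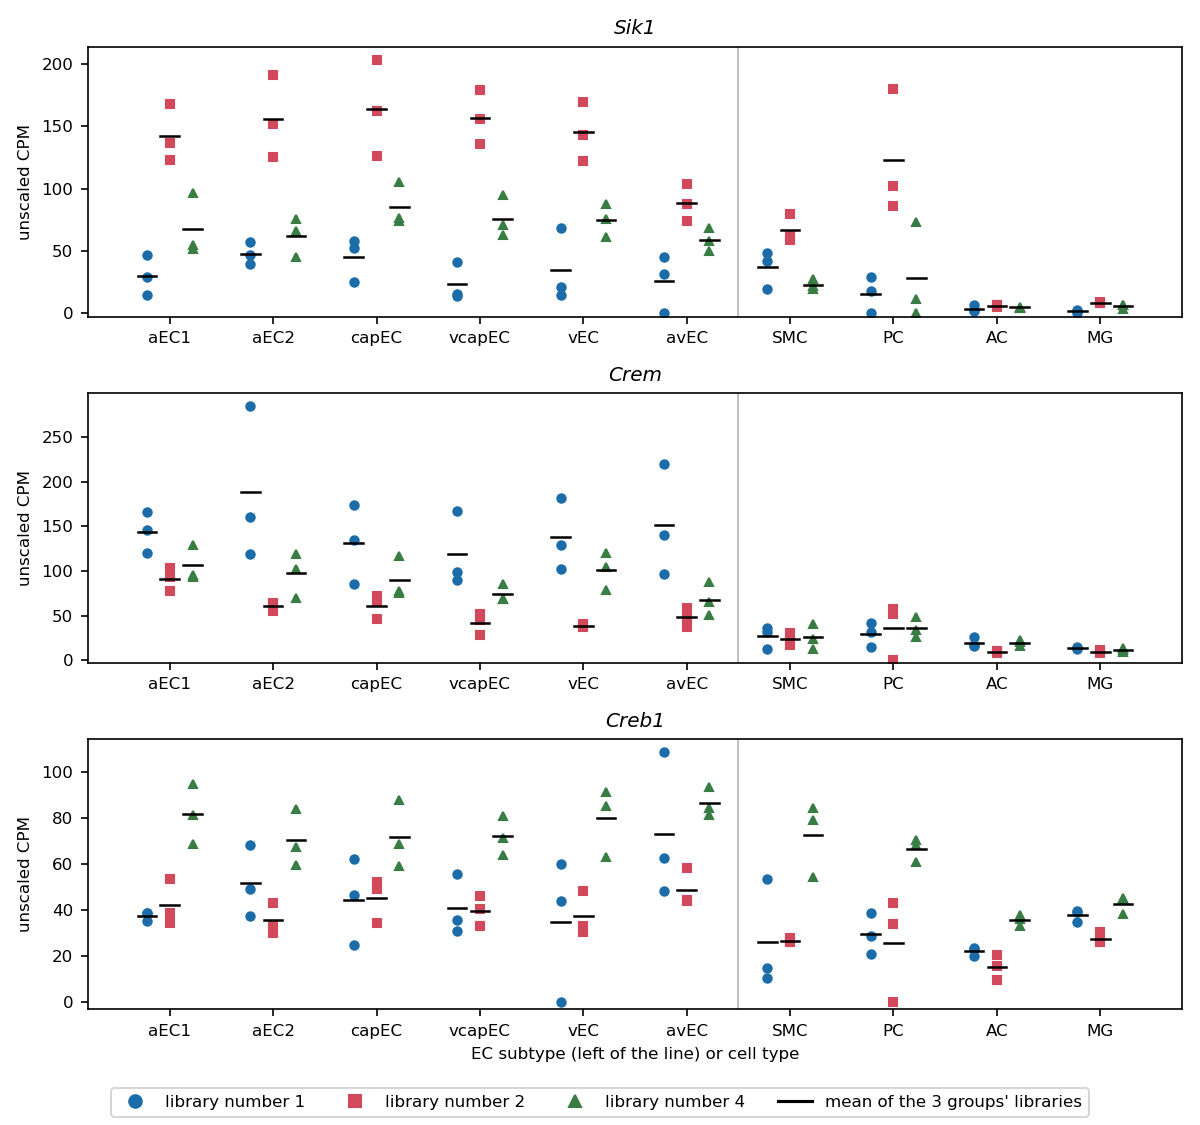
CPM (not scaled by TMM) of *Sik1*, *Crem* and *Creb1* by library number (colour) in 6 EC subtypes and 4 other types; each point is a library and each bar the mean of the 3 groups' libraries. In every EC subtype *Sik1* has its highest mean in number 2, *Crem* in number 1 and *Creb1* in number 4.

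Genes known to respond to tissue dissociation moved with the library number as well. The summed level of 23 such immediate-early and stress genes in ECs was 14355, 25815 and 21779 CPM in young adult, 19989, 33844 and 18308 in aged and 18610, 30803 and 17220 in treated libraries 1, 2 and 4. Library 2 was the highest in each group, as for *Sik1*. The lowest was library 1 in young adult but library 4 in aged and in treated, whereas *Sik1* was lowest in library 1 of each group. The part of dissociation, depth or sequencing batch in the levels of *Sik1*, *Crem* and *Creb1* was not tested.

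Across the 16 cell types, the genes with the profile most like that of each member were ranked by Pearson's r of mean log2(CPM + 1) among 14123 genes with at least 10 CPM in a type. The types share libraries and depth, and r is given as a description. *Adcy4* was nearest to *Zfp366* (0.95), *Sox17* (0.95), an arterial transcription factor, and *Acer2* (0.95), and *Pde4d* to the PC marker *Vtn* (0.88), the adenosine receptor gene *Adora2a* (0.87) and *P2ry14* (0.85). *Sik1* was nearest to the heat shock genes *Hspa1a* (0.91) and *Hspb1* (0.88) and to *Dysf* (0.88), and *Dpp4* to *Bche* (0.92), *Mal* (0.84), a myelin gene, and *Fn1* (0.84). *Crem* was nearest to *Snai2* (0.86), *Creb1* to *Pacs1* (0.91), *Prkar1a* to *Tmem250-ps* (0.89), *Prkaca* to *Igip* (0.93) and *Pde4b* to *1110008F13Rik* (0.88).

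The rest of the pathway in ECs was described by 11 lists of genes. Ordered along the relay, the most abundant were *Gnas* (849 ± 591 CPM, n = 9), the stimulatory G protein, and *Ramp2* (746 ± 210), a partner of the adrenomedullin receptor. They were followed among cyclases by *Adcy9* (9.26) and *Adcy6* (8.96), among phosphodiesterases by *Pde2a* (47.8) and *Pde8a* (45.9), and among PKA partners by the inhibitor gene *Pkig* (274) and the catalytic *Prkacb* (63.8). The anchoring proteins were led by *Akap12* (375) and *Akap13* (307), the PKA-independent cAMP sensors by *Rapgef4* (307) and *Rapgef3* (105), the coactivators by *Crebbp* (89.8) and *Ep300* (36.0), the SIK kinases by *Sik3* (27.3) and the CREB targets by *Junb* (2347) and *Fos* (2102). Both *Junb* and *Fos* also belong to the list of dissociation genes, so that these lists overlap. None of the lists' genes was called in ECs or microglia by edgeR without the block in either comparison, when no gene of the 10312 tested in microglia was called (0%) either. With the block 0.359% of these were called with age and 0% with exenatide. In ECs 1 list gene was called with age under the block, *Klf6*, a zinc finger factor of the dissociation list, which was 784, 694 and 809 CPM in young adult, 1196, 1007 and 1103 in aged and 873, 1018 and 881 in treated libraries (*lnFC* 0.37 ± 0.09, edgeR FDR = 0.0449).

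By list, the median *lnFC* with age in ECs was 0.19 over 8 of 14 further phosphodiesterase genes that could be tested, 0.26 over 9 of 11 anchoring proteins, −0.29 over 9 of 20 G protein and receptor genes, 0.17 over 4 of 9 cyclases and 0.01 over 6 of 7 PKA genes, beside 0.01 over all genes. It was 0.14 over 9 of 9 genes of the CREB family, 0.10 over 11 of 16 CREB targets and 0.21 over 22 of 23 dissociation genes. The numbers with an unadjusted p below 0.05 were 1 phosphodiesterase, 1 CREB family and 3 dissociation genes and 0 of the others, against 3% of all EC genes. With the block they were 4 anchoring proteins, 3 CREB targets, 2 G protein and receptor genes, 2 of the CREB family, 1 cyclase, 1 phosphodiesterase and 4 dissociation genes and 0 of the others, against 12% of all EC genes. With exenatide the medians were 0.12, −0.06, 0.05, 0.05, 0.02, 0.09, −0.05 and −0.05 in the same order, beside −0.003 over all genes, and 1 G protein or receptor gene and 1 CREB target had an unadjusted p below 0.05 (0.507% of all EC genes). With the block these were 2 G protein and receptor genes, 2 dissociation genes and 1 each of the peptidase list, the phosphodiesterases, the CREB family and the CREB targets (4.37% of all EC genes). The remaining lists, of peptidases and related receptors (3 of 11 tested), cAMP sensors (4 of 12) and SIK kinases (2 of 2), had medians of −0.14, 0.11 and 0.18 with age and 0.15, 0.09 and 0.01 with exenatide.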

How the data were processed

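Brain cells of 9 libraries were profiled by droplet-based single-cell RNA sequencing (10x 3′ kit v2). The submitters' processing notes name Cell Ranger 3.0.0 and Seurat 3.0.1, and the genome was mm10. Before deposit, the authors took out genes present in under 3 cells, cells of extreme UMI or gene number or high mitochondrial share, and clusters with markers of more than 1 type; doublets were not searched for again. Values of the deposited matrix are natural logs: the ln of 1 plus 10000 times the share of a gene in the UMIs of its cell. The deposited table of cells gives the total UMI count, the mitochondrial fraction, the library, the batch and the authors' cell types and subtypes. UMI counts were recovered from the natural log values and the totals. All 58404382 entries were whole within 1e-06, and in all 72543 cells their sum equalled the deposited total.

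For each type and library with at least 10 such cells, the cells' counts were added up, scaled by TMM, filtered by filterByExpr and tested with edgeR 4.0.16 (R 4.3.3; quasi-likelihood test, robust, prior count 0.125, all libraries with a sum, at most 9, in a fit, Benjamini-Hochberg adjustment). DESeq2 1.42.0 and limma 3.58.1 were alternatives, and levels were computed in Python 3.11.15. EC sums held 867779 to 5720396 UMIs. The procedure was tested on simulated data. Nothing states that the libraries of a group came from separate animals (the labels give 3 mice for each library, the study 5 for each group), so that p-values measure the spread between libraries. Library numbers recur in each group as batches A, B and C of the deposited table, and deviations from group means in ECs correlated at 0.49 to 0.75 between libraries of a number (9 pairs) and at a median of −0.36 otherwise; the number was therefore also fitted as a block. The members and lists were chosen with earlier results of these data known. Named beyond the members were the 3 genes of most like profile, the most abundant genes of each list in ECs and every list gene called. Samples were grouped by their labels. The test on counts had been planned for raw counts, and limma on the mean natural log values, the fits leaving out a library under the block, the test of library number and the split of oligodendrocytes by myelin genes were added after the data had been seen. RefSeq promoters of *Crem* and *Sik1* were not analysed here.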

Additional observations from a re-analysis of the deposited data

Results flagged for a closer look

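Some members moved in opposite directions in 2 EC subtypes in every library number; the difference between subtypes was not tested, and with 3 libraries per group no test for outlying samples was made. They were picked from 41 pairs of a member and a subtype, of which 15 went 1 way in all 3 library numbers with age (36.6%, against 28.5% of the pairs of any gene and a subtype) and 13 with exenatide (31.7%, against 26.4%). Values are medians of the differences within a library number, in CPM after TMM scaling. With age, *Adcy4* was higher in avEC (29.4) and lower in aEC2 (−6.96) in all 3 numbers. Aged library 1 held 13 avEC and 30 aEC2 cells (31840 and 87688 UMIs), so that its *Adcy4* levels there rest on few UMIs. In avEC *Adcy4* was 124, 111 and 57.6 CPM in young adult libraries against 157, 144 and 62.7 in aged ones, and in aEC2 85.8, 63.2 and 48.5 against 34.2, 57.3 and 46.6. *Prkaca* with age was higher in vEC (12.8) and lower in vcapEC (−4.34). With exenatide, *Creb1* was higher in aEC1 (13.8) and vEC (16.8) and lower in aEC2 (−7.65). In vEC *Creb1* was at 0 CPM in aged library 1, the smallest library.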

How the results depend on the processing

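The number of genes called in ECs with age was 0 in the main fit, 90 with the replicate block and 10 with DESeq2, and in microglia 0, 37 and 7, and 3 with no filter on low counts; the cause was not tested. Other scalings, the 2 compared groups alone and limma left these counts at 0. Without the block leaving out any library gave 0. Leaving out a library, over both fits, gave 0 to 157 genes in ECs and 0 to 119 in microglia with age, 0 to 18 and 0 to 10 with exenatide, and 0 to 1 and 0 to 0 member pairs. In the blocked fit the EC count with age fell to 28 without aged library 4 and 56 without young adult library 4 and rose to 157 without young adult library 2; the microglia count was 8 without aged library 4 and 119 without young adult library 1. With exenatide 18 EC genes were called without aged library 2. The member pair was *Pde4b* in ECs with age, blocked and without treated library 1 (0.52, FDR = 0.0427). Of 28 *lnFC* values 24 kept their direction in every other alternative, and 15 of 15 levels stayed within 1 SD. Those that turned were near 0: *Adcy4* in ECs with age was −0.00015 with the block and −0.0082 with no filter, and with exenatide limma on mean ln values gave −0.015 for *Adcy4*, −0.00146 for *Pde4d* and −0.0030 for *Prkaca*. *Klf6* passed with the block (0.37).

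Leaving out a library reversed 17 of the *lnFC* values. With age in ECs the ranges were −0.12 to 0.33 (*Dpp4*), −0.13 to 0.21 (*Adcy4*), −0.17 to 0.25 (*Creb1*), −0.23 to 0.39 (*Crem*), −0.095 to 0.27 (*Prkar1a*), −0.12 to 0.25 (*Prkaca*) and −0.35 to 0.82 (*Sik1*). With exenatide they were −0.13 to 0.21 (*Adcy4*), −0.15 to 0.29 (*Creb1*), −0.47 to 0.20 (*Crem*), −0.29 to 0.026 (*Pde4b*), −0.19 to 0.24 (*Pde4d*), −0.28 to 0.079 (*Prkar1a*), −0.18 to 0.33 (*Prkaca*) and −0.28 to 0.69 (*Sik1*). *Sik1* ranged from −0.0048 to 0.80 in aEC1 with exenatide and from −0.18 to 0.92 in aEC2 with age. The age values of *Pde4b* (0.45 to 0.64) and *Pde4d* (−0.78 to −0.48) in ECs kept their direction. Their groups did not overlap, so that leaving out a library could not be expected to turn them. The alternatives planned for cells with a *Glp1r* UMI (thinning, leaving out a library) were not run, since the gene was not among those listed. *Glp1r* was thus not measured, and *Dpp4* and *Pde4d* rested on 470 and 1623 UMIs over all types. ECs held 20.2% of the *Pde4d* UMIs.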
